A study of Mus musculus with 98 samples.

Results

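Chemokines are small secreted or membrane-tethered proteins that guide the movement of leukocytes. The 10 genes described here are *Cxcl13*, *Cxcl14*, *Cxcl16*, *Cx3cl1*, *Cxcl1*, *Cxcl9*, *Cxcl10*, *Ccl2*, *Ccl7* and *Ccl11*, taken by name as fibroblast and inflammatory chemokines and not by a rule on a measured value. Earlier results of these data were known when they were chosen. All 10 were among the 22231 genes of the single-cell table of the age series, the 20760 genes of the newborn single-cell table and the 39179 gene identifiers of the bulk table. The non-epithelial, non-haematopoietic thymic stroma (NETS, sorted as live Ter119-CD45-EpCAM- cells) of wild-type (WT) C57BL/6 mice was captured fresh as single cells at the embryonic days E12.5, E13.5 and E16.5, at P0 (newborn) and at W4 (4 weeks), with 1 library at each of the first 2 ages and 2 at each later one. A second single-cell set held Ter119-CD45- cells, with the EpCAM+ epithelium kept, that were fixed in RNAprotect at P0, from 3 libraries of Tbx1+/-Crkl+/- mice (a lacZ allele of *Tbx1* and a germline null allele of *Crkl*, both heterozygous) and 3 of their WT littermates. The third set was bulk RNA-seq of small numbers of CD45- cells of WT mice, sorted at P0 and W4 as CD31+ endothelium, Ly51+gp38- mural cells, gp38+CD26+ fibroblasts (the capsular gate), gp38+CD26- fibroblasts (enriched in the medulla), cTEC and mTEC, with mTEChi and mTEClo at W4 as well, and with 6 libraries for each of the 14 groups. In the age series, embryos of 2 litters were pooled at E12.5 and at E13.5 and 2 thymi were used at each later age. The newborn set is described as n = 3 of each genotype, the number of its libraries, and the number of animals behind a bulk library is not given in the sources used here. For the bulk set p-values therefore measure the spread between libraries, which may be technical.

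Each of these chemokines binds seven-transmembrane receptors on particular leukocytes. CXCL13 acts on CXCR5 of B cells, CXCL16 on CXCR6 of NKT and other T cells, CX3CL1 on CX3CR1 of monocytes and macrophages, CXCL1 on CXCR2 of neutrophils, and CXCL9 and CXCL10 on CXCR3 of activated T and NK cells. CCL2 recruits monocytes through CCR2, CCL7 uses CCR1, CCR2 and CCR3, and CCL11 (eotaxin) attracts eosinophils through CCR3, while the receptor of CXCL14 is not settled. CXCL16 and CX3CL1 are made as transmembrane proteins and are released by the sheddases ADAM10 and ADAM17, and the atypical receptors ACKR1 to ACKR4 bind chemokines without classical signalling. In the thymus, chemokines of epithelium and mesenchyme guide the entry of progenitors and the passage of thymocytes between cortex and medulla.

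In the GRCm38 annotation the genes lie in clusters. *Ccl2* (chromosome 11, 82035571 to 82037453, + strand), *Ccl7* (82045712 to 82047525) and *Ccl11* (82057823 to 82062955) follow each other on 1 strand, with 8258 bases between the first pair and 10297 between the second. *Cxcl9* (chromosome 5, 92321347 to 92328079) and *Cxcl10* (92346638 to 92348889) lie on the - strand with 18558 bases between them, and *Cxcl1* (90891241 to 90893115) and *Cxcl13* (95956951 to 95961068) are on the + strand of the same chromosome. The others are *Cxcl16* on chromosome 11 (70453983 to 70459984, - strand), *Cxcl14* on chromosome 13 (56288643 to 56296551, - strand) and *Cx3cl1* on chromosome 8 (94772009 to 94782427, + strand).

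RefSeq promoter windows of GRCm38.p6, from 250 bases before to 50 after the annotated start, were available for 6 of the 10 genes. *Cxcl1* and *Cxcl10* are printed because both fell from P0 to W4 in most subtypes, *Cxcl9* because it lies next to *Cxcl10* but moved differently, and *Cxcl14* because it had the steepest rise to W4. Capitals mark matches on either strand to the NF-kB consensus, to GAAANNGAAA (the interferon-stimulated type) or to TTCNNNGAA (the STAT type), and lower case is the rest of the window. The windows are chr5:90890995-90891294 on the + strand, and chr5:92348840-92349139, chr5:92328030-92328329 and chr13:56296502-56296801 on the - strand, in the order of the lines, each written 5′ to 3′.
Cxcl1: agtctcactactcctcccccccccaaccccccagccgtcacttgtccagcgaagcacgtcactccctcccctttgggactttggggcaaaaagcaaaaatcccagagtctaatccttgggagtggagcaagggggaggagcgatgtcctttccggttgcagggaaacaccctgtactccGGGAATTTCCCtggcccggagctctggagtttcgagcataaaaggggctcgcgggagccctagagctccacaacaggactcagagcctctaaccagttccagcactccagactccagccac
Cxcl10: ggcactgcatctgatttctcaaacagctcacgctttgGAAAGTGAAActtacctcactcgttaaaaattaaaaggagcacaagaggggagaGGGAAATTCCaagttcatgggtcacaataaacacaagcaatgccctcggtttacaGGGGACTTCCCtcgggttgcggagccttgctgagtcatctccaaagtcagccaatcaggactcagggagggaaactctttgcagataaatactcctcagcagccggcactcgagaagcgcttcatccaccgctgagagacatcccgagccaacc
Cxcl9: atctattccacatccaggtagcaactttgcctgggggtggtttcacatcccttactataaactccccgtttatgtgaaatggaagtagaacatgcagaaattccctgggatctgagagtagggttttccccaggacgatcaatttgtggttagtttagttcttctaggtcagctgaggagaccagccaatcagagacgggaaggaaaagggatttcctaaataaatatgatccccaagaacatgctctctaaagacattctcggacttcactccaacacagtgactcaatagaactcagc
Cxcl14: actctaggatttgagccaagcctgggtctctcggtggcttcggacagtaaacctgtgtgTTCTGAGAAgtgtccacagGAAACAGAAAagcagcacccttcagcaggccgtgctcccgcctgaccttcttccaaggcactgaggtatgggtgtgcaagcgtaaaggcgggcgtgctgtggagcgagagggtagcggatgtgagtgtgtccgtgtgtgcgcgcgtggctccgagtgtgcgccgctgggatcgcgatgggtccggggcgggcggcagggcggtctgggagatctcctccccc
Among the 32851 mouse windows of this length, 8.46% held the NF-kB consensus, 3.44% GAAANNGAAA and 8.30% TTCNNNGAA. *Cxcl1* held 2 overlapping NF-kB matches, at base -71 from the start and, on the other strand, at -70. *Cxcl10* held NF-kB matches at -159, -104 and -103, all on the strand of the gene and the last pair overlapping, and GAAAGTGAAA at -213. *Cxcl14* held GAAACAGAAA at -172 and TTCTGAGAA at -191, and *Cxcl9*, *Cxcl13* and *Cx3cl1* held none of these letters in the window.

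The age series held 36208 cells in 19 subtypes, with 28583048 to 93040640 UMIs (transcripts counted once each) per library, and the newborn genotype set 21451 cells with 4978011 to 31418527. Levels are given as CPM, the UMIs of a gene summed over the cells of a subtype in a library, divided by those of all genes and multiplied by 1e6, and calls are from the edgeR quasi-likelihood test with Benjamini-Hochberg adjustment over all genes of a fit. Changes are on the log2 scale ± SE, and values of bulk groups are the lowest, median and highest library. Library pairs of the single-cell sets shared 0 to 14 cell barcodes. Bulk libraries kept had 5785352 to 15852166 reads in genes, and the W4 gp38+CD26+ replicate 2, with 25702, was left out of all bulk values and fits. Capsular, mesothelial, mural, endothelial and glial markers were highest in the subtypes named for them in most cases, but MedFb1a was among the highest 4 subtypes for 0 of 5 medullary markers and CapFb1a and CapFb1b for 1 of 5 capsular ones. At P0 the second library was the higher one in 16 of 19 subtypes for *Ccl2*, 15 for *Ccl7* and *Ccl11* and 14 for *Cxcl13*, and the lower one in 17 for *Cxcl14* and 14 for *Cxcl16*.

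Every chemokine was read in stromal cells, and the subtype with the highest mean over the libraries differed among them. CapFb1c, a capsular fibroblast subtype, was highest for *Cxcl13*, *Cxcl1* and *Ccl7*, while medullary fibroblasts were highest for *Cxcl14* (MedFb1a), *Cxcl9*, *Cxcl10* and *Ccl11* (all MedFb2b). MedFb2b had too few cells at E12.5 and E13.5, so its mean covers only the 6 later libraries. Over these 6 alone, *Ccl11* was highest in MedFb1b (1094 ± 572 CPM), MedFb2b was first for it in 0 of 8 libraries, and the first subtype of the other 9 genes was as given. *Cxcl14* was about as high in MedFb1b (243 ± 373) as in MedFb1a (244 ± 377), and MedFb1b was first by the share of cells with a UMI after thinning each cell to 2000 UMIs. *Ccl2* was highest in pericytes (Pc), *Cx3cl1* in arterial endothelium (EnA) and *Cxcl16* in mesothelium (Mes). The gap between the first and second subtype was larger than the larger of their SDs only for *Cxcl10*, which over the same 6 later libraries was 1789 ± 714 CPM in MedFb2b and 567 ± 383 in MedFb1a (SD over libraries), so for the other 9 genes the order of the first pair was within the spread, which includes the change with age. At P0 alone the *Cxcl10* gap was smaller, with 1483 ± 264 CPM in MedFb2b and 1009 ± 181.4 in MedFb2a (n = 2). Subtypes were defined on these counts, so no test was made between them.

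**Figure D1:**
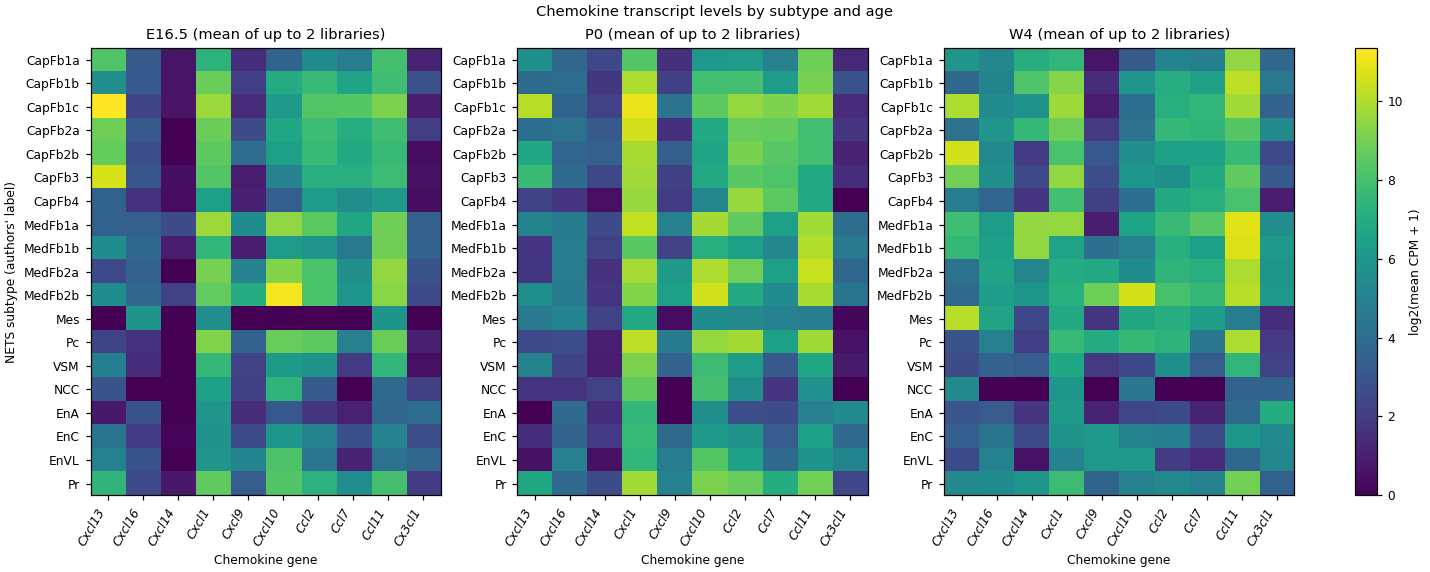
Heat map of the mean level of each chemokine, as log2(CPM + 1), in the 19 NETS subtypes at E16.5, P0 and W4 (mean of the libraries with at least 5 cells of the subtype). Dark colours are low levels and bright ones high. *Cxcl13* is brightest in capsular fibroblasts, *Cxcl14* is seen in MedFb1 subtypes at W4 and *Cxcl10* is brightest in MedFb2b at all 3 ages.

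W4 was tested against P0 in 17 subtypes, which gave 102 calls for the members, 55 higher and 47 lower at W4. By subtype, with the share of all genes called in the same fit in brackets, capsular fibroblasts had 6 of 9 in CapFb1a (34.4%), 7 of 10 in CapFb1b (46.5%), 8 of 10 in CapFb1c (34.1%), 5 of 9 in CapFb2a (22.8%), 6 of 10 in CapFb2b (34.1%), 4 of 9 in CapFb3 (22.2%) and 7 of 7 in CapFb4 (34.5%) called. Medullary fibroblasts had 10 of 10 in MedFb1a (33.1%), 10 of 10 in MedFb1b (49%), 9 of 10 in MedFb2a (44.8%) and 6 of 10 in MedFb2b (22.2%). Mural, endothelial and proliferating cells (Pr) had 6 of 8 in Pc (34.9%), 3 of 8 in VSM (25.4%), 2 of 3 in EnA (10.8%), 4 of 9 in EnC (22.8%), 4 of 7 in EnVL (16.3%) and 5 of 10 in Pr (11.9%). The share of members called was above that of all genes in each of these 17 subtypes. All subtypes come from the same few libraries, so a shift of a library enters each of them. Counts over subtypes, here and below, are therefore not independent. The median change of the members ranged from -2.19 in EnVL to 1.41 in MedFb1b on the log2 scale, where that of all genes ranged from -0.06 to 0.02.

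The earlier step, P0 against E16.5, was added after the levels were seen. It gave 75 calls in the same 17 subtypes, 67 of them higher at P0. The counts were 5 of 9 in CapFb1a (10.8%), 7 of 10 in CapFb1b (28.3%), 9 of 10 in CapFb1c (16%), 3 of 9 in CapFb2a (3.02%), 3 of 10 in CapFb2b (7.68%), 0 of 9 in CapFb3 (0.508%) and 5 of 7 in CapFb4 (14.5%) in capsular fibroblasts, 5 of 10 in MedFb1a (15.4%), 8 of 10 in MedFb1b (20%), 8 of 10 in MedFb2a (20.2%) and 2 of 10 in MedFb2b (5.7%) in medullary fibroblasts and 5 of 8 in Pc (20.6%), 2 of 8 in VSM (9.85%), 1 of 3 in EnA (5.4%), 4 of 9 in EnC (24.6%), 4 of 7 in EnVL (18.5%) and 4 of 10 in Pr (12.6%) in the others. CapFb3 was the subtype with no call. This count rested on both E16.5 libraries, as it was 43 without the first and 46 without the second.

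A test over all 5 ages was possible in the 11 subtypes with at least 20 cells in every library and gave 95 calls. The single libraries of E12.5 and E13.5 had to be taken as varying like those of the later ages. The counts were 9 of 9 in CapFb1a (68.9%), 10 of 10 in CapFb1b (68.2%), 9 of 10 in CapFb2a (44.5%), 10 of 10 in CapFb2b (64%), 8 of 10 in CapFb3 (40.4%), 10 of 10 in MedFb1a (63.6%), 8 of 9 in EnC (56.3%), 8 of 9 in EnVL (40.5%), 8 of 10 in Pc (68%), 10 of 10 in Pr (55.9%) and 5 of 10 in VSM (49%). In VSM the count was near the share of all genes.

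**Figure D2:**
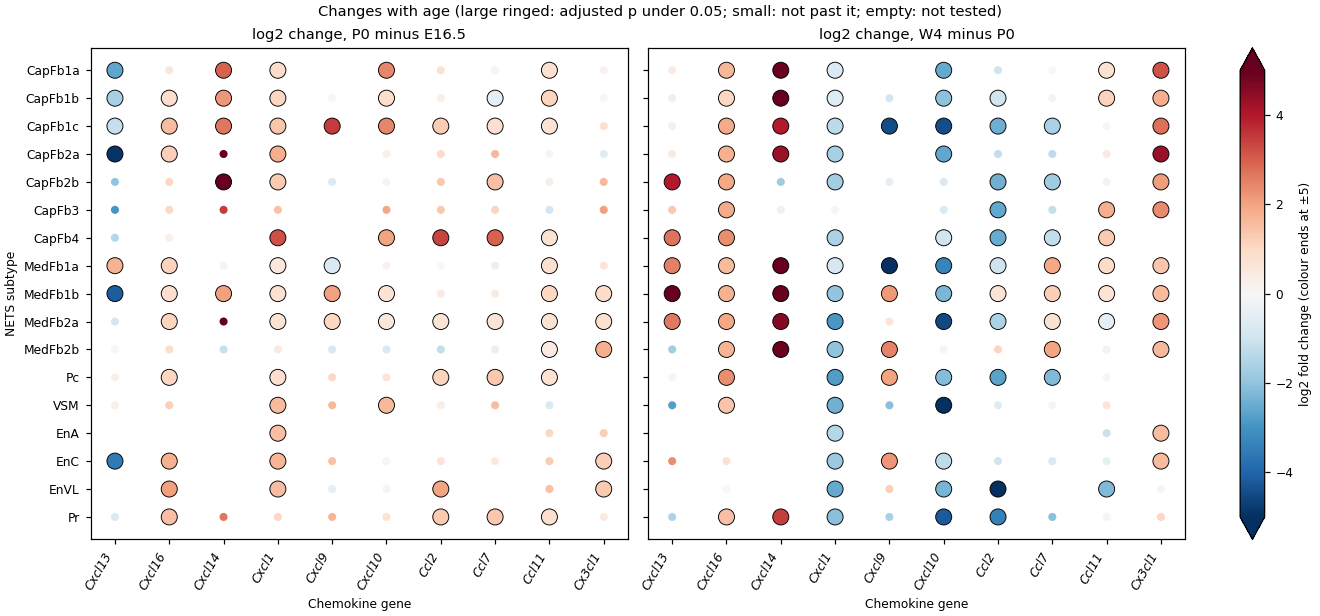
Log2 change of each chemokine in each subtype from E16.5 to P0 and from P0 to W4, with colour for the change (the scale ends at ±5) and a ring where the edgeR call was made. *Cxcl1* goes up in the first panel and down in the second in nearly every subtype, while *Cxcl14*, *Cxcl16* and *Cx3cl1* are higher at W4 than at P0 wherever they were called.

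*Cxcl13*, the B-cell attractant of lymphoid stroma, fell in 4 of 7 capsular subtypes, in MedFb1b and in EnC between E16.5 and P0 and rose in 3 of 4 medullary and 2 capsular subtypes afterwards. In CapFb1c its level was 0 CPM at E12.5, 703 at E13.5, 2535 and 2686 at E16.5, 526.01 and 1723 at P0, and 1235 and 754 at W4 (libraries in replicate order). Only 10 CapFb1c cells were captured at E12.5, where a count of 0 allows up to 27.8 CPM from counting error alone. The first library of P0 lay under the other 5 later ones, and both E16.5 libraries lay above the rest. The change from E16.5 to P0 in CapFb1c was -1.20 ± 0.34 (adjusted p = 0.0253) on the log2 scale, whereas W4 against P0 was -0.20 ± 0.34 (adjusted p = 0.687). The first of these was lost without either E16.5 library (-1.25, adjusted p = 0.0943 and -1.15, adjusted p = 0.123). Between E16.5 and P0 it fell in 6 of 15 subtypes, CapFb2a changing most, by -4.90 ± 0.63 (adjusted p = 0.00315), which missed the threshold without either E16.5 library (-5.14, adjusted p = 0.0607 and -4.54, adjusted p = 0.102). The fall in EnC was lost without any 1 of 5 libraries (-1.63 to -3.63 on the log2 scale), and that in CapFb1a without the second E16.5 library (-2.21, adjusted p = 0.0525). Of the 6 falls, 4 were still called without the first E16.5 library, 2 without the second and 4 with DESeq2. It rose in MedFb1a alone, by 1.75 ± 0.47 (adjusted p = 0.0184). The MedFb1a rise rested on the second P0 library, as the change without it was -0.49, adjusted p = 0.538, and it missed the threshold without either E16.5 library (1.35, adjusted p = 0.245 and 2.19, adjusted p = 0.0762).

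From P0 to W4, *Cxcl13* rose in 5 of 15 subtypes (MedFb1a, MedFb1b, MedFb2a, CapFb2b and CapFb4) and fell in none. The MedFb2a rise was lost without the first W4 library (0.97, adjusted p = 0.157) and that of MedFb1a with DESeq2 (adjusted p = 0.0619). MedFb1b, where it was 4.28 CPM at E12.5, 3.65 at E13.5, 58.7 and 30.6 at E16.5, 1.41 and 3.51 at P0, and 134.3 and 244 at W4, had the largest of these rises, 6.12 ± 0.42 (adjusted p = 2.51e-08). In MedFb1b both W4 libraries lay above all earlier ones, and P0 was the lowest of the 3 later ages. CapFb2b went from 28.4 and 184.04 CPM to 557 and 2460.1, with W4 above P0. Mesothelium, not tested for too few cells in a library, held 20.4 and 25.3 CPM at P0 and 904 and 1326 at W4. At E16.5, 66.5% of CapFb1c cells held at least 1 UMI (55.1% after each cell was thinned to 2000 UMIs, median depth 15781), against 4.25% of pericytes (0.817% thinned, median 10702).

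The bulk fibroblast gates differed in the age change of *Cxcl13*. The gp38+CD26+ libraries held 476, 648 and 1307 CPM at P0 and 29.1, 42.5 and 138 at W4, a change of -3.50 ± 0.45 (adjusted p = 2.59e-04), with no overlap of the ages. The single cells did not show this fall. There no subtype had a called fall from P0 to W4, CapFb2b and CapFb4 rose, and CapFb1c was not called. The gp38+CD26- libraries held 2.25, 11.6 and 353 CPM at P0 and 59.6, 166 and 523 at W4, a difference of 1.83 ± 1.08 (adjusted p = 0.255) that missed the threshold, with 1 P0 library at the level of W4. The age change differed between the gates by 5.31 ± 1.44 on the log2 scale (adjusted p = 0.0274), where 2.92% of all genes differed. At W4, gp38+CD26- exceeded the mean of the other 3 NETS populations by 4.29 ± 0.85 (adjusted p = 8.16e-04), and at P0 gp38+CD26+ did so by 7.33 ± 0.88 (adjusted p = 1.06e-06). That mean is of log2 levels and includes CD31+, which was near 0 (mean 0.0548 CPM at P0 and 0.618 at W4). A population near 0 enlarges such differences. Set directly against gp38+CD26+, gp38+CD26- differed by -3.50 at P0 and 1.82 at W4, neither called. In a bulk population, fewer cells of a type and less RNA per cell cannot be told apart. Some marker sums moved with age in these gates without overlap. In gp38+CD26+ the 5 mesothelial markers summed to 27.7 to 434 CPM at P0 and 574 to 5766 at W4, the 5 capsular markers to 2321 to 4010.3 and 12890.4 to 21527, the mural markers to 86.6 to 206 and 19.8 to 73.7 and the epithelial ones to 0.692 to 25.9 and 37.5 to 116. In gp38+CD26- the 5 medullary markers summed to 2125 to 3263 CPM at P0 and 6936 to 8192 at W4. The fibroblast marker sums overlapped between the ages in both gates. Their part in the age changes of these gates was not tested.

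*Cxcl14*, a chemokine of epithelia and fibroblasts, had the steepest rise of the genes described. In fibroblasts it was at most 19.7 CPM in any E16.5 or P0 library (CapFb2b, P0 replicate 1). In MedFb1b it was 0 CPM at E12.5, 0.521 at E13.5, 1.46 and 0.186 at E16.5, 2.59 and 4.47 at P0, and 742 and 707 at W4, and in MedFb1a 3.87 CPM at E12.5, 0.240 at E13.5, 6.42 and 3.66 at E16.5, 6.17 and 3.96 at P0, and 607 and 837 at W4. MedFb1b had 17 cells at E12.5, where a count of 0 allows up to 12.8 CPM. Both W4 libraries lay far above all others in MedFb1b and in MedFb1a. The changes from P0 to W4 were 7.57 ± 0.17 (adjusted p = 3.07e-13) and 7.13 ± 0.24 (adjusted p = 3.42e-13). CapFb1b went from 2.84 and 2.42 to 325 and 266 CPM, or 6.79 ± 0.14 (adjusted p = 5.08e-12), and 9 of 11 subtypes rose in all. The low-count filter kept *Cxcl14* in only 11 of the 17 subtypes. As it was low before W4, it could pass mainly through high W4 libraries. The 9 of 11 is therefore not read as a share of the stroma. DESeq2 called 6 of these 9, without CapFb2a, MedFb2a and MedFb2b, and the rise in Pr was lost without either E16.5 or either W4 library. CapFb2b and CapFb3 did not pass the test, with -1.76 ± 0.91 (adjusted p = 0.166) and -0.30 ± 1.20 (adjusted p = 0.885). Of MedFb1b cells at W4, 56.99% held a UMI of it (330 of 579, median depth 13986, 38.0% thinned), against 1.89% at P0 and, among EnVL cells at W4, 0.508% (1 of 197, median depth 8702).

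Both bulk fibroblast gates showed this rise. In gp38+CD26-, *Cxcl14* was 0, 0 and 7.16 CPM at P0 and 123, 196 and 283 at W4, or 6.95 ± 0.99 (adjusted p = 1.44e-04), and in gp38+CD26+ 0, 2.95 and 6.997 CPM at P0 and 8.53, 34.6 and 147 at W4, or 4.16 ± 0.92 (adjusted p = 0.00957). The ages did not overlap in either gate. The highest W4 gp38+CD26+ library stood apart from its group for both *Cxcl14* and *Cxcl13*. No read of *Cxcl14* was found in the W4 CD31+ or the P0 Ly51+gp38- libraries.

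*Cxcl16*, the transmembrane ligand of CXCR6, rose at both steps. From E16.5 to P0 it was higher in 10 of 16 subtypes and from P0 to W4 in 14 of 16, with no call in the other direction. Of the 10 rises to P0, 5 were still called without the first E16.5 library and 6 without the second. Of the 14 to W4, 12 to 14 were called with any 1 library left out, the VSM call being lost in 5 of these 6 cases. MedFb2a (18 cells at E12.5, where 0 allows up to 13.9 CPM) held 0 CPM at E12.5, 0 at E13.5, 11.9 and 9.53 at E16.5, 27.5 and 24.6 at P0, and 97.2 and 100.4 at W4, and from E16.5 on each age lay above the one before. Its changes there were 1.12 ± 0.14 (adjusted p = 1.57e-04) and 1.94 ± 0.11 (adjusted p = 2.42e-08). Pericytes and CapFb4 had the largest changes to W4, 2.33 ± 0.25 (adjusted p = 2.36e-05) and 2.33 ± 0.47 (adjusted p = 5.22e-04). Endothelium was the exception, with 0.75 ± 0.34 (adjusted p = 0.150) in EnC and -0.01 ± 0.32 (adjusted p = 0.983) in EnVL.

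In bulk, *Cxcl16* in gp38+CD26- was 14.3, 16.04 and 39.3 CPM at P0 and 53.0, 78.1 and 92.7 at W4, a rise of 2.10 ± 0.27 (adjusted p = 6.45e-05), and in gp38+CD26+ the rise was 2.14 ± 0.64 (adjusted p = 0.0456). The latter just passed, and it missed the threshold with any 1 of 9 of the 11 libraries left out, at 1.91 to 2.31 on the log2 scale, and with the label prefix as a term or without the low-count filter. In CD31+ the ages did not overlap (0, 8.71 and 16.3 CPM at P0 and 22.2, 26.7 and 42.4 at W4), but the test gave 1.97 ± 0.99 (adjusted p = 0.331). Both kinds of TEC lay above every NETS library at P0, with 76.7, 121.7 and 128 CPM in cTEC and 76.6, 94.1 and 109 in mTEC. The change with age did not pass the interaction test over 6 populations for *Cxcl16*.

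*Cx3cl1* (fractalkine), the other tethered chemokine, rose from P0 to W4 in 12 of 14 subtypes. The low-count filter left it in only these 14 of the 17 subtypes, so those where it stayed low are not counted. EnA held 56.2 CPM at E12.5, 23.2 at E13.5, 12.52 and 19.8 at E16.5, 50.7 and 32.7 at P0, and 151.01 and 105 at W4, with W4 above the rest and a change of 1.54 ± 0.33 (adjusted p = 0.00937), which missed the threshold without the second P0 library (1.26, adjusted p = 0.0695) or the first of W4 (1.28, adjusted p = 0.0903). Only 10 EnA cells were captured at E12.5, and 29 and 31 in the P0 libraries. CapFb2a had the largest change, 4.30 ± 0.42 (adjusted p = 7.81e-05), at a low level (1.15 and 3.31 CPM at P0 and 41.6 and 37.8 at W4). EnVL gave 0.05 ± 0.35 (adjusted p = 0.941). From E16.5 to P0 the rise was called in 5 of 14 subtypes, EnC, EnVL, MedFb1b, MedFb2a and MedFb2b. Without the first E16.5 library, and also with DESeq2, 1 of these 5 was still called, MedFb1b in both cases, and without the second P0 library 2 were. Of the 12 rises to W4, 9 to 11 were called with any 1 library left out. Those in EnA, CapFb2b and CapFb3 were lost with DESeq2.

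Among the sorted NETS, *Cx3cl1* was above the mean of the other populations in CD31+ and gp38+CD26- at both ages. CD31+ held 54.6, 145.7 and 199.6 CPM at P0 and 283, 345 and 428 at W4, a rise of 1.41 ± 0.27 (adjusted p = 0.00681), and gp38+CD26- held 28.1, 73.7 and 194 CPM at P0 and 301, 385 and 435 at W4, a rise of 2.29 ± 0.35 (adjusted p = 2.6e-04). The ages did not overlap in either. The gp38+CD26- level was above that of gp38+CD26+ by 2.63 ± 0.53 (adjusted p = 0.00585) at P0 and by 3.62 ± 0.41 (adjusted p = 2.22e-06) at W4, the only member called at both ages in this pair of gates.

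The sheddases that release both proteins were read throughout the stroma. *Adam10* had 24180 UMIs in the age series, with the highest pooled level, 174.6 CPM, in EnA, and *Adam17* 12203 UMIs, with 67.95 CPM in NCC. Of 34 tests of W4 against P0 in the subtypes, 15 were called (30.3% of the tests of all genes were), all higher and 11 of them for *Adam17*. In bulk, 3 of 12 were called (13.6% of all), 1 higher and 2 lower.

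*Cxcl1*, a neutrophil attractant induced early in inflammation, was higher at P0 than at E16.5 or W4 in most subtypes. CapFb1c held 0 CPM at E12.5 (10 cells, where 0 allows up to 27.8 CPM), 11.2 at E13.5, 723 and 853 at E16.5, 1984 and 2147 at P0, and 755 and 896 at W4, with both P0 libraries above all others. It rose from E16.5 to P0 in 14 of 17 subtypes, by 0.51 to 3.22 on the log2 scale, and fell from P0 to W4 in 16 of 17, by 0.69 (CapFb1b) to 2.89 (MedFb2a), CapFb3 being the exception. Of the 14 rises, 6 were still called without the first E16.5 library, 7 without the second and 9 with DESeq2, while 13 to 15 of the 16 falls were called with any 1 library left out. CapFb4 had the largest rise, 3.22 ± 0.15 (adjusted p = 1.13e-12). Pericytes fell from 1255 and 1128 to 172.4 and 221 CPM, or -2.80 ± 0.12 (adjusted p = 3.2e-08).

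It fell in 3 of 4 bulk NETS populations and in cTEC, and rose in mTEC. In gp38+CD26+, *Cxcl1* was 82.02, 172.9 and 285 CPM at P0 and 1.53, 10.8 and 18.9 at W4, or -3.77 ± 0.54 (adjusted p = 5.81e-04). In gp38+CD26- the change was -2.52 ± 0.43 (adjusted p = 6.04e-04), in Ly51+gp38- -2.51 ± 0.75 (adjusted p = 0.0419), a call lost with the label prefix as a term or without the low-count filter, and in cTEC -3.74 ± 0.87 (adjusted p = 0.00687), with no overlap of the ages in any of these 4 populations. In mTEC it was 4.91, 7.33 and 14.3 CPM at P0 and 26.2, 45.96 and 91.3 at W4, or 2.49 ± 0.39 (adjusted p = 0.00145), again with no overlap. The 12 immediate early and stress genes, which respond to cell handling as well as to signals, were highest at P0 too. Their summed level per library of the age series was 3560 CPM at E12.5, 6054 at E13.5, 11359 and 11499 at E16.5, 19421 and 17025 at P0, and 10734 and 12184 at W4. In bulk their sum was 9475 to 25421 CPM at P0 and 893 to 3907 at W4 in gp38+CD26+, and 4581 to 8006 and 1394 to 4940 in mTEC. Their part in the *Cxcl1* result was not tested.

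*Cxcl10*, an interferon- and NF-kB-induced ligand of CXCR3, had its highest mean in MedFb2b at E16.5, P0 and W4 alike. MedFb2b held 2890.5 and 1774 CPM at E16.5, 1296 and 1669.7 at P0 and 857 and 2249 at W4, with 0 cells of this subtype at E12.5 and 3 at E13.5. The ages overlapped in MedFb2b, and W4 against P0 gave 0.10 ± 0.28 (adjusted p = 0.852). Of the other 15 subtypes tested, *Cxcl10* fell in 13, CapFb2b and CapFb3 not being called. The CapFb4 fall was lost without the first library of P0 or of W4 and, with those of CapFb1a and Pc, with DESeq2. VSM went from 212 and 229 to 5.67 and 3.24 CPM, or -5.70 ± 0.19 (adjusted p = 7.72e-06), and MedFb2a from 881 and 1138 to 59.6 and 29.8, or -4.52 ± 0.21 (adjusted p = 4.11e-09). In bulk only cTEC was called, at 48.0, 61.7 and 85.05 CPM at P0 and 18.7, 28.9 and 36.3 at W4, a change of -1.12 ± 0.20 (adjusted p = 0.00116). The sorted NETS thus did not show the fall of the single cells, and their ages overlapped. In gp38+CD26- *Cxcl10* was 8.16, 22.0 and 41.4 CPM at P0 and 4.50, 7.61 and 27.2 at W4. In Ly51+gp38- it was 5.24, 9.04 and 13.1 CPM at P0 and 0.0878, 6.50 and 9.57 at W4. These P0 levels were far under those of the fresh MedFb2a cells, and the reason was not tested.

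*Cxcl9*, its interferon-gamma-induced neighbour, went a different way in several subtypes. MedFb2b held 178 and 81.5 CPM at E16.5, 114 and 51.9 at P0 and 679 and 244 at W4, a rise after P0 of 2.5 ± 0.40 (adjusted p = 1.26e-04). It rose in EnC, MedFb1b and Pc as well, by 2.23 ± 0.40 (adjusted p = 0.00504), 2.15 ± 0.36 (adjusted p = 1.89e-04) and 2.03 ± 0.36 (adjusted p = 0.00114). The MedFb1b call was lost with DESeq2. CapFb1c and MedFb1a fell, with changes of -4.47 ± 0.50 (adjusted p = 5.36e-06) and -4.98 ± 0.53 (adjusted p = 8.69e-07), from levels of 16.6 and 21.3 and 33.7 and 25.9 CPM. Over the 19 subtypes the mean levels of *Cxcl9* and *Cxcl10*, as log2(CPM + 1), had a Pearson r of 0.83, a description over subtypes of shared libraries.

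In the sorted NETS, *Cxcl9* rose in 3 of 4 populations. CD31+ held 0, 3.80 and 12.4 CPM at P0 and 43.3, 53.6 and 71.5 at W4, or 3.75 ± 0.78 (adjusted p = 0.0109), and gp38+CD26- held 3.74, 6.51 and 11.4 CPM at P0 and 42.1, 63.9 and 97.5 at W4, or 3.35 ± 0.32 (adjusted p = 4.34e-06). Ly51+gp38- rose by 2.96 ± 0.81 (adjusted p = 0.0277), and in all of these the ages did not overlap. Marker sums moved with age without overlap here as well. In Ly51+gp38- the 5 mural markers summed to 30494 to 41002 CPM at P0 and 88748 to 114016 at W4, the 5 medullary markers to 451 to 827 and 1073 to 1552 and the 6 thymocyte markers to 4.60 to 28.6 and 58.1 to 221. In CD31+ the 5 mural markers summed to 25.8 to 157.97 CPM at P0 and 628 to 1819.7 at W4, while the endothelial markers overlapped. Their part in the age changes of these populations was not tested. The gp38+CD26- gate exceeded gp38+CD26+ at W4 by 3.70 ± 0.44 (adjusted p = 5.06e-06). The 15 interferon-induced genes of the list rose in 126 and fell in 32 of 255 tests of W4 against P0 in the subtypes, or 61.96% against 30.3% over all genes, and their summed level per library went from 152 CPM at E12.5 to 1138 and 1336 at P0 and 1646 and 1518 at W4.

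**Figure D3:**
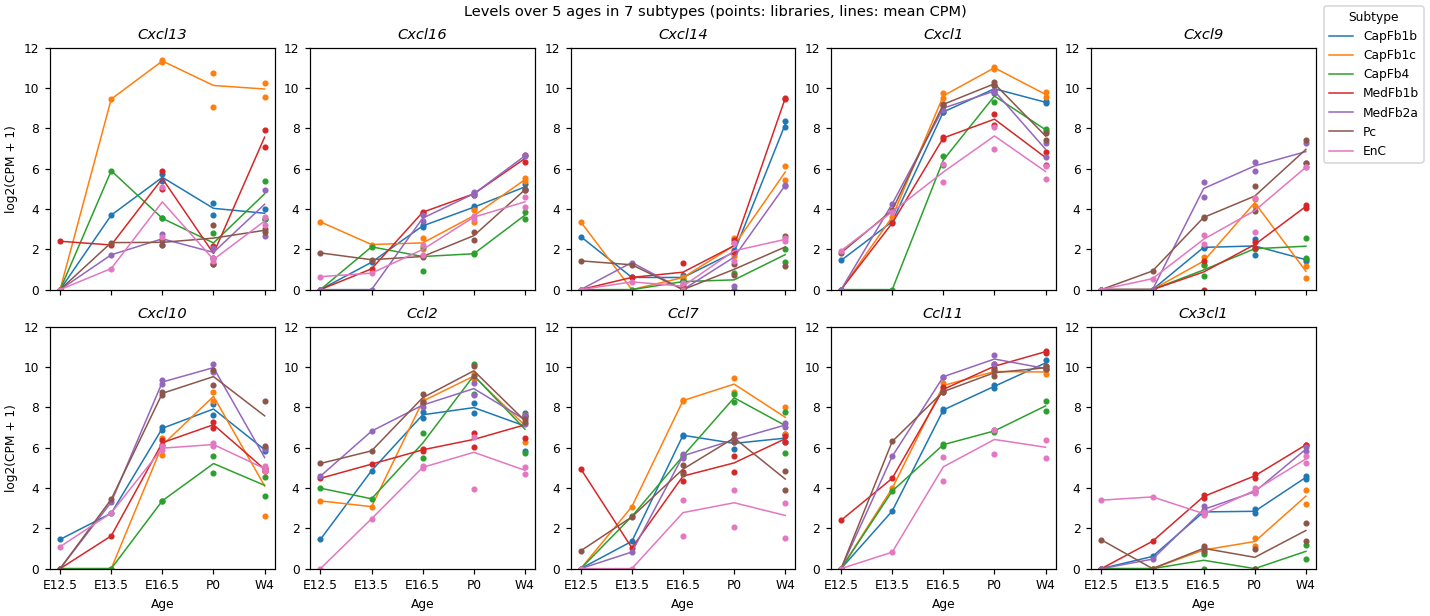
Level of each chemokine in CPM at the 5 ages in 7 subtypes (points are libraries, lines join the means). *Cxcl1* in CapFb1c is highest at P0 (1984 and 2147 CPM), *Cxcl13* in CapFb1c at E16.5 (2535 and 2686), and *Cxcl14* in MedFb1b at W4 (742 and 707).

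The CC chemokines of the chromosome 11 cluster shared their subtypes only in part. *Ccl2* and *Ccl7* had similar mean levels over the 19 subtypes (Pearson r of 0.88 on log2(CPM + 1)), *Ccl2* and *Cxcl1* likewise (0.84), as a description. Cells with a *Ccl2* UMI held *Ccl7* more often than cells without it in 48 of 52 subtypes and libraries (median 14.7% against 6.10%), with depth not matched between the cells. The same held for *Cxcl1* with *Ccl2* in 72 of 80 and with *Ccl7* in 73 of 80. Cells with a *Cxcl13* UMI held *Ccl11* more often in 22 of 27 and *Cxcl1* in 16 of 27, but *Cxcl14* in 2 of 27, where the median share was 0 with and without it. Cells with a *Cxcl16* UMI held *Cx3cl1* more often in 4 of 11 (median 0% against 2.09%), at counts too sparse to read a direction from.

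*Ccl2*, the main monocyte attractant, had its highest mean in pericytes at E16.5 and P0 and in MedFb2b at W4. Pericytes ranked first in 2 of 8 libraries. Pericytes held 408 and 308 CPM at E16.5, 752 and 1057 at P0 and 153 and 169.8 at W4. The changes were 1.15 ± 0.16 (adjusted p = 6.3e-04) and -2.69 ± 0.18 (adjusted p = 7.08e-07). From P0 to W4 it fell in 10 of 16 subtypes, EnVL having the largest fall, -5.04 ± 0.89 (adjusted p = 0.00292), and rose in MedFb1b, by 0.69 ± 0.25 (adjusted p = 0.0350). The EnVL call was lost without the first W4 library (-4.17, adjusted p = 0.0737). The CapFb2b fall was lost without the same library, the CapFb1b fall without any 1 of 4 libraries and with DESeq2, and the CapFb4 fall with DESeq2. The MedFb1b rise rested on the second W4 library, without which it was 0.02, adjusted p = 0.948, and was lost without the first of P0 (0.41, adjusted p = 0.133) or either of E16.5.

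*Ccl7*, which shares CCR2 with CCL2, fell in 3 of 7 capsular subtypes and rose in all 4 medullary ones after P0. CapFb1c held 326 and 322 CPM at E16.5, 432 and 711 at P0 and 101.1 and 262 at W4, a change after P0 of -1.64 ± 0.29 (adjusted p = 4.05e-04). CapFb2b, CapFb4 and Pc fell as well. The 4 medullary subtypes rose, MedFb1a by 1.93 ± 0.15 (adjusted p = 1.58e-08), MedFb1b by 1.25 ± 0.20 (adjusted p = 1.04e-04), MedFb2a by 0.71 ± 0.10 (adjusted p = 7.18e-05) and MedFb2b by 1.96 ± 0.39 (adjusted p = 0.00113), the last being 1.53, adjusted p = 0.0551 without the second W4 library. With DESeq2 the MedFb2b rise and the CapFb4 fall were lost.

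The bulk gates differed for *Ccl7* in the same sense. In gp38+CD26+ it was 216, 304 and 839 CPM at P0 and 39.9, 69.3 and 214 at W4, a change of -2.08 ± 0.46 (adjusted p = 0.0101), and in gp38+CD26- 36.0, 106 and 164.8 CPM at P0 and 85.9, 143.8 and 215 at W4, a difference of 0.73 ± 0.35 (adjusted p = 0.161). The age change differed between the gates by 2.77 ± 0.70 (adjusted p = 0.0174). *Ccl2* in gp38+CD26+ was 171, 219 and 459 CPM at P0 and 33.2, 59.7 and 129.7 at W4, a change of -1.83 ± 0.35 (adjusted p = 0.00439). In Ly51+gp38- mural cells *Ccl2* was 50.7, 119.8 and 135.3 CPM at P0 and 24.1, 38.8 and 81.6 at W4, a change of -1.18 ± 0.32 (adjusted p = 0.0252). In gp38+CD26- it was 55.9, 135.8 and 264 CPM at P0 and 54.2, 71.1 and 119.9 at W4. The mural median was thus under that of both fibroblast gates at each age, although pericytes had the highest single-cell mean at P0. For both genes the gp38+CD26+ ages did not overlap. In mTEC *Ccl2* rose, from 12.9, 16.8 and 19.8 CPM at P0 to 18.05, 46.7 and 81.8 at W4, or 1.60 ± 0.31 (adjusted p = 0.00711), with overlap.

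*Ccl11* (eotaxin) was present at every age from E16.5 in medullary fibroblasts. MedFb1b held 4.28 CPM at E12.5, 21.4 at E13.5, 521 and 433 at E16.5, 988 and 1127 at P0, and 1800.2 and 1695 at W4, each later age above the one before. The changes were 1.02 ± 0.09 (adjusted p = 3.89e-06) and 0.69 ± 0.09 (adjusted p = 1.46e-05). It rose from E16.5 to P0 in 10 of 17 subtypes, and from P0 to W4 in 6 of 17 with a fall in EnVL and MedFb2a. The changes in these were -2.19 ± 0.61 (adjusted p = 0.0300) and -0.48 ± 0.12 (adjusted p = 0.00495). Both falls missed the threshold without the first W4 library, at -1.98, adjusted p = 0.218 and -0.41, adjusted p = 0.0613, and that of EnVL also without the second of W4 or of P0. Of the 6 rises to W4, that in CapFb3 was lost without either W4 library and with DESeq2. Of the 10 rises to P0, that in CapFb1a was lost without the second E16.5 library and that in Pr without either of E16.5. The MedFb2b rise to P0 was lost without the second E16.5 library or either of P0, and with DESeq2. In bulk gp38+CD26- it was 178, 343 and 476 CPM at P0 and 622, 718 and 912 at W4, a rise of 1.29 ± 0.21 (adjusted p = 3.98e-04) with no overlap, whereas gp38+CD26+ gave -0.24 ± 0.23 (adjusted p = 0.584). This difference between the 2 gates was 1.48 ± 0.90 and not called. In mTEC *Ccl11* rose from 2.49, 7.23 and 14.2 CPM at P0 to 27.9, 49.3 and 133 at W4, or 3.04 ± 0.50 (adjusted p = 0.00217), with no overlap.

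In bulk as a whole, 25 of 53 tests of W4 against P0 were called, 16 higher. With the share of all genes in brackets, they were 2 of 6 in CD31+ (5.09%), 3 of 9 in Ly51+gp38- (11.9%), 6 of 10 in gp38+CD26+ (13.2%), 6 of 10 in gp38+CD26- (24.3%), 4 of 8 in cTEC (22.3%) and 4 of 10 in mTEC (5.99%). The members' share was above that of all genes in each population. The median change was -0.60 in gp38+CD26+ and 1.56 in gp38+CD26-, where all genes had -0.06 and -0.09. The age change differed over the 6 populations for 7 of 10 members (21.1% of all genes), all but *Cxcl16*, *Cx3cl1* and *Cxcl10*.

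Each NETS population was also set against the mean of the other 3 of its age, which called 46 of 80. At P0 the counts were 7 of 10 in CD31+ (31.8%), 4 of 10 in Ly51+gp38- (13.4%), 7 of 10 in gp38+CD26+ (17.2%) and 5 of 10 in gp38+CD26- (10.8%), and at W4 7 of 10 in CD31+ (32.2%), 2 of 10 in Ly51+gp38- (25%), 6 of 10 in gp38+CD26+ (21.4%) and 8 of 10 in gp38+CD26- (16.9%). CD31+ was mostly lower and both fibroblast gates mostly higher. The mean of the other 3 was taken on the log2 scale, so a population near 0 enlarges the differences of the others. CD31+ was near 0 for some members, with means of 0.0137 and 0 CPM for *Ccl7* at P0 and W4 and 0.0411 and 0 for *Cxcl14*. At P0 gp38+CD26+ was higher for 6 members and at W4 for 4, and gp38+CD26- was higher for 5 and then 8. Of these calls, that of *Cxcl14* in gp38+CD26- at P0 was lost with DESeq2 (adjusted p = 0.193) and with the label prefix as a term (adjusted p = 0.173), and that of *Ccl2* in gp38+CD26+ at W4 with the prefix term (adjusted p = 0.0504). Between the gates directly, gp38+CD26- against gp38+CD26+ was called for 2 of 10 members at P0 (2.14%), *Cx3cl1* higher and *Ccl7* lower, and for 2 of 10 at W4 (7.81%), *Cx3cl1* and *Cxcl9* higher. The difference for *Ccl7* at P0 was -2.10 ± 0.41 (adjusted p = 0.00520).

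**Figure D4:**
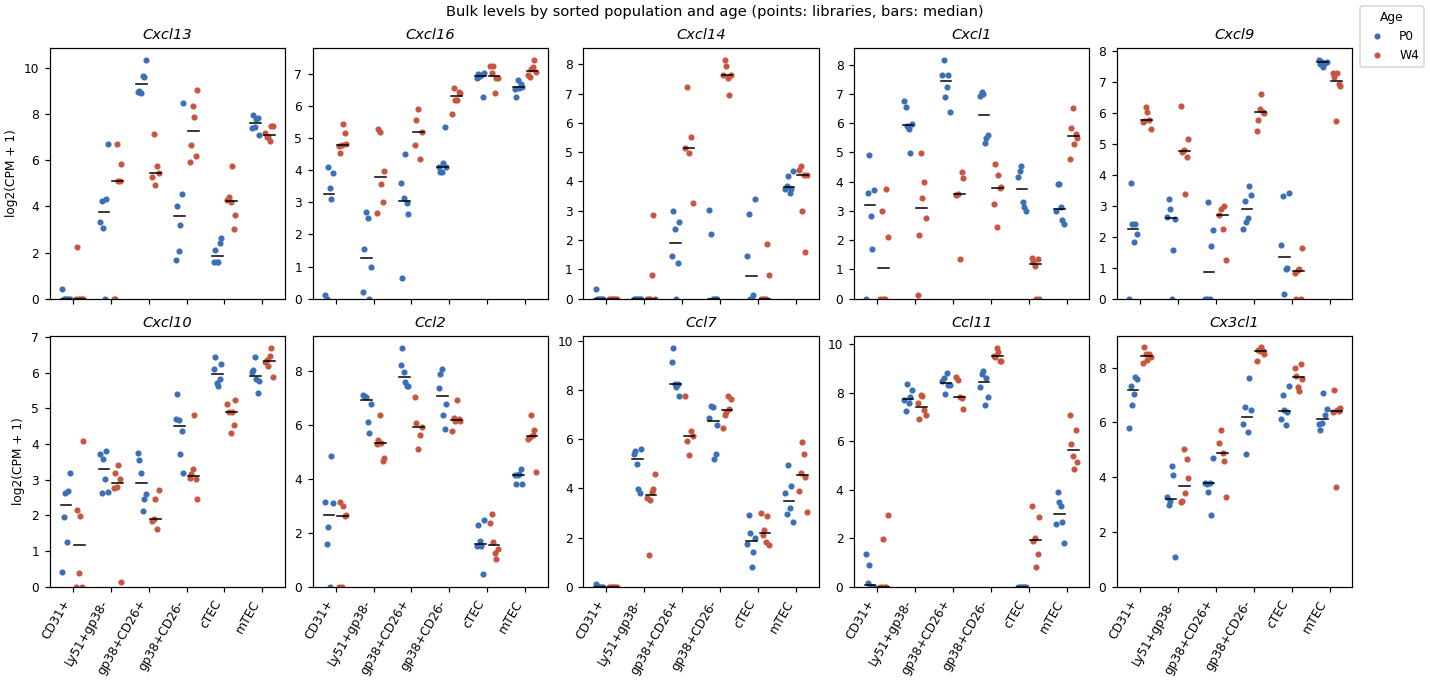
Level of each chemokine as log2(CPM + 1) in the bulk libraries of 6 sorted populations at P0 and W4 (points are libraries, bars medians). *Cxcl13* in gp38+CD26+ goes from a median of 648 CPM at P0 to 42.5 at W4, and *Cxcl14* in gp38+CD26- from 0 to 196.

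Epithelium held these chemokines too, and several were higher in the medulla than in the cortex. mTEC exceeded cTEC for 5 of 10 members at P0 (43.5% of all genes were called) and 8 of 10 at W4 (25.2%), all higher in mTEC, the count at P0 being near that of all genes. *Cxcl13* was 136.4, 199 and 245 CPM in mTEC and 2.004, 2.71 and 5.14 in cTEC at P0, a difference of 6.04 ± 0.29 (adjusted p = 1.4e-09). *Cxcl9* was 178, 198 and 209.5 in mTEC and 0.118, 1.65 and 9.59 in cTEC, or 5.77 ± 0.64 (adjusted p = 4.17e-06). The populations did not overlap for either gene. *Ccl11*, *Ccl7* and *Ccl2* were the other members called at P0, and at W4 these 5 were called together with *Cxcl14*, *Cxcl1* and *Cxcl10*, while *Cxcl16* and *Cx3cl1* were called at neither age. From P0 to W4 *Cx3cl1* rose in cTEC by 1.13 ± 0.24 (adjusted p = 0.00400) and *Cxcl16* in mTEC by 0.57 ± 0.15 (adjusted p = 0.0335), the latter not called without the low-count filter.

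mTEChi, the mature mTEC with high MHC class II, differed from mTEClo at W4 for 8 of 10 members (16.4%). *Cxcl13*, *Cxcl1*, *Cxcl9*, *Cxcl10*, *Ccl7* and *Ccl2* were higher in mTEChi and *Ccl11* and *Cxcl14* lower. *Ccl11* was 10.7, 20.7 and 29.7 CPM in mTEChi and 124.2, 166 and 317 in mTEClo, or -3.00 ± 0.29 (adjusted p = 2.92e-05). *Cxcl14* was 1.20, 8.92 and 15.96 and 28.6, 83.9 and 143.8, or -3.13 ± 0.64 (adjusted p = 0.00365).

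Markers of other cells moved with some of these groups. The 7 myeloid markers summed to 238 to 353 CPM in mTEC and 4.48 to 11.5 in cTEC at P0, and to 373 to 566 and 68.3 to 254 at W4, without overlap between the populations or between the ages of either. In mTEChi they summed to 507 to 690 CPM and in mTEClo to 42.8 to 315, with *Lyz2*, *Adgre1* and *C1qa* all read. The 5 mural markers, at 1723 to 2199.9 CPM in mTEChi and 2671 to 4531 in mTEClo, and the 5 capsular markers, at 229 to 330.1 and 463 to 1481, were lower in mTEChi without overlap, as *Ccl11* and *Cxcl14* were, while the 6 fibroblast markers overlapped. At P0 mTEC also lay above cTEC without overlap for the fibroblast markers (369.7 to 484 CPM in mTEC), the mesothelial markers (843 to 1055) and the mural markers. At W4 the fibroblast and mesothelial sums of these populations overlapped and the mural ones did not. In cTEC, where *Cxcl13* rose by 2.81 ± 0.49 (adjusted p = 0.00103), the 6 fibroblast markers summed to 25.5 to 145.2 CPM at P0 and 365 to 2596 at W4, the 5 mesothelial markers to 0.118 to 4.84 and 15.99 to 2518, the 6 thymocyte markers to 5.63 to 25.2 and 255 to 1078 and the 5 mural markers to 88.2 to 189 and 245 to 812. In mTEC the mural markers summed to 2225 to 3446 CPM at P0 and 1459 to 3365 at W4, which overlap. Their part in the epithelial results was not tested.

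At P0 the fixed single cells placed the epithelial transcripts in subtypes. In WT littermates *Cxcl10* was highest in PcTEC (4581 ± 104 CPM, SD, n = 3) and ItTEC (3288 ± 979.8). *Cxcl9* was highest in MmTEC (1033 ± 653), followed by PrTEC (315 ± 190.7). *Cxcl16* was highest in McTEC (95.0 ± 10.003), whereas *Cxcl13* (CapFb1c, 1351 ± 427), *Cxcl1*, *Ccl2* and *Ccl7* were highest in CapFb1c, and *Ccl11* in MedFb2a (1567 ± 69.8). *Cx3cl1* was highest in MedFb2b (30.4 ± 10.6), close to ItTEC (30.1 ± 12.2), and *Cxcl14* in PAmTEC, where it was read in 1 of 3 libraries. Cells labelled Thy, which are not known as a source of these chemokines, held them as well. Of these, 61.7% held a UMI of *Cxcl10* (55.7% thinned), 32.3% of *Cxcl1*, 23.9% of *Ccl11* and 22.2% of *Ccl2*, at a median depth of 2071 UMIs, and how much of the low levels in other subtypes is background was not tested.

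Between genotypes, 0 of 118 tests in 18 subtypes were called for the members with edgeR, with 20 at an unadjusted p under 0.05. The lowest adjusted p of these was 0.151. DESeq2 called 1, *Cxcl9* in MmTEC (-2.08, adjusted p = 0.00343), and edgeR without the filter on low counts called 3, *Cxcl13* in MmTEC (-2.11, adjusted p = 1.15e-06), *Cxcl9* in MmTEC (-2.09, adjusted p = 6.03e-06) and *Cxcl9* in PcTEC (1.03, adjusted p = 0.0380). The share of all genes called was 0 in CapFb1a, CapFb1c, EnVL, ItTEC, McTEC, MedFb1b and PcTEC, 0.0469% in CapFb1b, 0.0317% in CapFb2b, 0.118% in CapFb4, 0.0148% in EnC, 0.0548% in MedFb2a, 0.148% in MmTEC, 0.08% in Pc, 0.0411% in Pr, 0.162% in PrTEC, 0.276% in Thy and 0.0308% in VSM, so few genes of any kind were called at this depth and n.

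The lowest adjusted p were those of *Cxcl10* in Thy, *Cxcl9* in MmTEC and *Cxcl10* in CapFb4. *Cxcl9* in MmTEC was 526.1 to 1769 CPM in WT and 156.3 to 397 in Tbx1+/-Crkl+/- libraries, with no overlap and a difference of -1.99 ± 0.46 (adjusted p = 0.158). *Cxcl13* in MmTEC differed by -2.02 ± 0.62 (adjusted p = 0.293), with overlap. *Cxcl10* differed by 1.16 ± 0.34 (adjusted p = 0.151) in Thy and by 0.98 ± 0.33 (adjusted p = 0.243) in CapFb4. None of these passed the threshold with the low-count filter in edgeR while all libraries were kept. Without WT replicate 1, *Cxcl10* in CapFb4 (1.12, adjusted p = 0.0352) and *Cxcl9* in MmTEC (-2.24, adjusted p = 0.0466) passed it. *Cxcl10* in Thy did so without Tbx1+/-Crkl+/- replicate 1 (1.47, adjusted p = 0.0453). *Cxcl9* passed in Pr without Tbx1+/-Crkl+/- replicate 2 (1.57, adjusted p = 0.0399) and in PrTEC without WT replicate 3 (-1.51, adjusted p = 0.0138). The changes ranged from -0.79 to 0.32 for *Cxcl1* and from -0.87 to 0.54 for *Ccl2* in 18 subtypes each, from -0.53 to 0.60 for *Ccl7* in 12 and from -0.44 to 0.32 for *Cxcl16* in 8. *Ccl11* ranged from -0.88 to 1.10 in 18 subtypes and *Cx3cl1* from -0.78 to -0.19 in 3, and *Cxcl14* was tested only in ItTEC, where it was -1.31 (adjusted p = 0.99985).

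**Figure D5:**
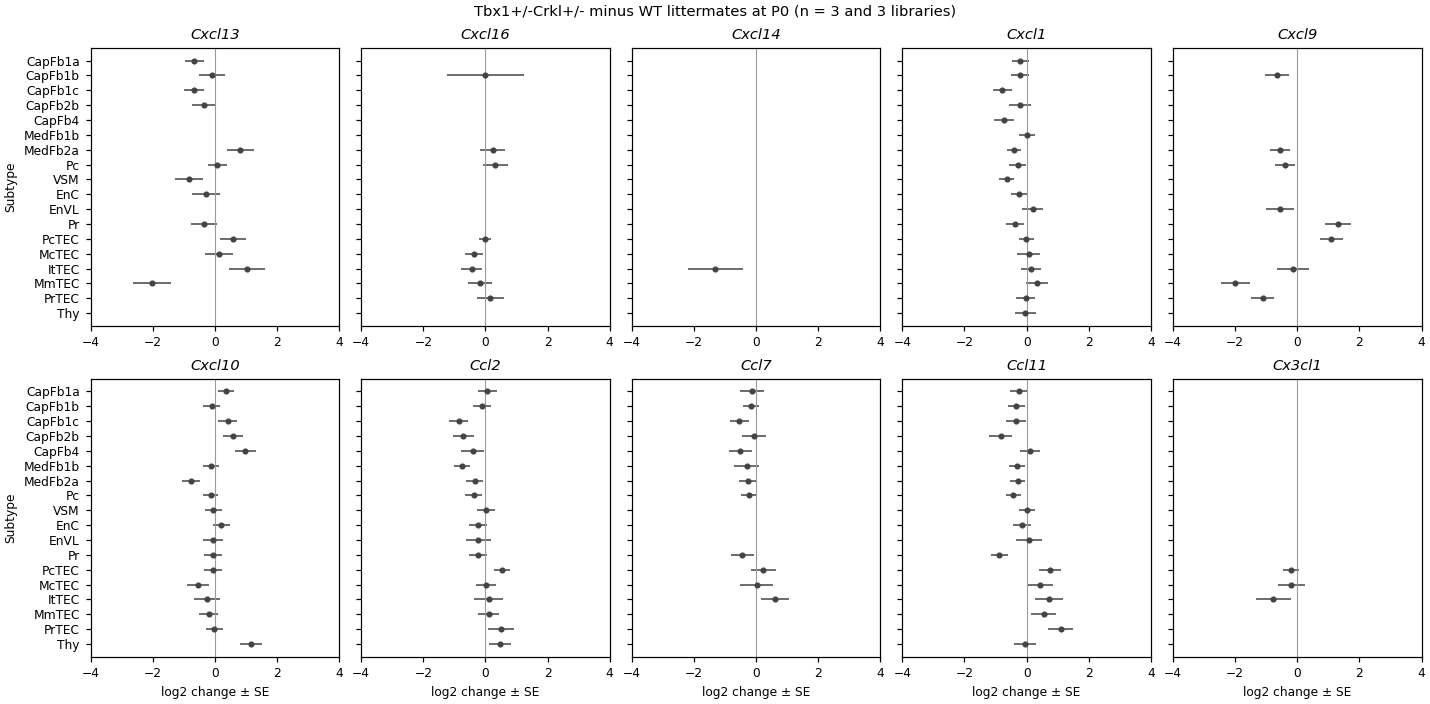
Log2 change of each chemokine between Tbx1+/-Crkl+/- and WT littermates at P0 in each subtype tested, with bars of ± 1 SE. None of the 118 changes passed the adjusted threshold.

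Fresh and fixed WT cells of P0 could be set side by side in 13 subtypes, as separate libraries. *Cxcl10* was lower in the fresh libraries in 13 of 13, the fixed level being 1.51 to 6.04 times the fresh one with a median of 2.81. *Cxcl13*, *Cxcl9* and *Ccl2* were lower in the fresh ones without overlap in 6 subtypes each, with *Cxcl9* higher in 1. *Cxcl14* was higher in 5, *Cxcl16* higher in 5 and lower in 2, *Ccl7* higher in 4 and lower in 2, *Cx3cl1* higher in 3, *Ccl11* lower in 2 and *Cxcl1* lower in 1. The share of all genes without overlap was not taken, and few libraries can separate by chance. The counts are therefore not read as a result about these genes. Some rest on levels near 0, as for *Cxcl14* in MedFb2a (0.140 to 3.97 CPM fresh and 0 fixed). Fixation, the sort and the library cannot be told apart here.

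The receptors of the members were nearly absent from the NETS, from which CD45+ cells had been removed. Over all 8 libraries there were 8 UMIs of *Cxcr5*, 6 of *Cxcr6*, 5 of *Cxcr3*, 7 of *Ccr1*, 17 of *Ccr2*, 13 of *Ccr3* and 233 of *Cx3cr1*, and *Cxcr2* reached at most 0.707 CPM in any subtype. The atypical receptors were present, with 3400 UMIs of *Ackr1* (highest in EnVL, 203 CPM pooled), 609 of *Ackr2* (CapFb4, 15.6), 17179 of *Ackr3* (CapFb4, 328) and 3523 of *Ackr4* (CapFb4, 30.6). They were called in 32 of 41 tests of W4 against P0 (30.3% over all genes), 31 of them higher.

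In bulk 6 of 17 tests of the atypical receptors were called (13.6% over all genes), all higher at W4. *Ackr1*, the chemokine-binding receptor of venules, rose in CD31+ from 118 ± 41.6 to 895 ± 79.3 CPM (SD, n = 6), or 3.03 ± 0.24 (adjusted p = 6.34e-06). In gp38+CD26+, *Ackr3* rose from 90.01 ± 14.1 to 923 ± 244 CPM (n = 5 at W4), or 3.46 ± 0.21 (adjusted p = 6.45e-07), and *Ackr2*, a scavenger of inflammatory CC chemokines, from 3.86 ± 4.41 to 75.2 ± 18.2, or 4.41 ± 0.94 (adjusted p = 0.00759).

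For 26 other chemokines, W4 against P0 gave 46 rises and 31 falls in the subtypes (63.1% of the tests, against 30.3% over all genes), and 20 rises and 1 fall in 48 tests in bulk (13.6%). *Cxcl12*, the ligand of CXCR4, rose in CD31+ by 2.95 ± 0.16 (adjusted p = 1.17e-07), and *Ccl19*, a ligand of CCR7, in Ly51+gp38- by 7.28 ± 0.52 (adjusted p = 1.58e-06). NF-kB targets and lymphotoxin pathway genes were called in 92 of 229 tests of P0 against E16.5 (14.2% over all genes), 88 higher, and in 48.5% of those of W4 against P0 (30.3%), with 39 rises and 72 falls. Immediate early and stress genes were called in 66.2% and then 81.4% of 204 tests of the same steps, mostly higher at the first step and lower at the second.

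The genes with the pattern most like each member were found by the correlation of log2(mean CPM + 1) over the 19 subtypes among 11578 genes, as a description. *Cxcl13* was most like *Tceal5* (r of 0.835), *Six2* and *Zfp395*, and *Cxcl14* like *Scml4* (0.910), *Fbln7* and *Kcng4*. *Cxcl16* was most like *Flt3l* (0.847) and *Cfb*, and *Cx3cl1* like *Ifngr1* (0.892), *Tcf4* and *Slc7a7*. *Cxcl1* was most like *Dnm3os* (0.870), *Med13* and *Shox2*, *Cxcl9* like *Serpina3f* (0.922), *Gna13* and *Cxcl10*, and *Cxcl10* like *Rab20* (0.889), *Fam26f* and *Cxcl9*. *Ccl2* was most like *Glipr2* (0.903), *Ccl7* and *Kazn*, *Ccl7* like *Hs6st2* (0.931), *6030419C18Rik* and *Prcd*, and *Ccl11* like *Il1r2* (0.970), *Fap* and *Trps1*.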

How the data were processed

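Single-cell reads were turned into UMI counts by the authors with Cell Ranger 3.1.0. Cells poor in genes or rich in mitochondrial UMIs, doublets and clusters of other lineages had been taken out before deposit, and the deposited matrices hold raw counts with a subtype label per cell, which was used unchanged. Bulk reads were deposited by the authors as raw counts per Ensembl gene, and the submitters' processing notes name STAR 2.5.3a, HTSeq and the mouse build mm10. A symbol was found for 37607 of 39179 identifiers, and entries of no gene were left out. Single-cell columns were assigned to libraries by their names, and 0 columns belonged to no sample.

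UMIs were summed per subtype and library. Levels used sums over at least 5 cells and tests subtypes with at least 20 cells in every library of the fit. Tests were made with edgeR 4.0.16 in R 4.3.3 (filterByExpr, TMM factors, quasi-likelihood test), with p adjusted by Benjamini and Hochberg over all genes of a fit and a threshold of 0.05. Bulk libraries under 1000000 reads in genes were left out. Population fits held the 4 NETS populations of 1 age, and the other bulk fits only the groups compared. DESeq2 1.42.0, RLE factors, no low-count filter, a label prefix term, a replicate block (in bulk by the position of the library number) and leaving out each library were tried as alternatives. The fits were tested on simulated counts. Cells were thinned to 2000 UMIs for shares.

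The genes described and the lists set beside them (other chemokines, receptors, atypical receptors, sheddases, NF-kB, interferon-induced and immediate early genes, and cell type markers) were chosen with earlier results of these data known. By the rule for named genes all 10 members were taken in every comparison, with values printed for those the results turn on, together with the 3 genes most like each over 19 subtypes at a mean of at least 10 CPM, except that 1 of these and 1 receptor are not reported here. The comparison of P0 with E16.5 and the crossed and the bulk replicate blocks were added after the data were seen. Human cells and cytometry were not analysed here. Limits from counting cover counting error only.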

Additional observations from a re-analysis of the deposited data

Results flagged for a closer look

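Single libraries that lay far from the others of their group were looked for in each member and bulk group of 5 or 6 libraries. This gave 21 pairs of a member and a group, in 17 libraries, where chance would give about 6.8 if levels were normally spread. The rule was applied to CPM without a log scale, where that need not hold, so the excess over 6.8 cannot be read as such. All but *Cxcl16* in cTEC replicate 5 at P0 were the highest of their group. At P0 the libraries apart were CD31+ replicate 1 for *Cxcl13* (0.329 CPM, 4 reads), *Cxcl14* (0.246, 3 reads) and *Ccl7* (0.0821, 1 read), where all other libraries had 0 and so few reads set a library apart, replicate 2 for *Cxcl9* (12.4) and replicate 5 for *Ccl2* (27.9). Also apart at P0 were Ly51+gp38- replicate 6 for *Cxcl13* (102.9), gp38+CD26- replicate 6 for *Cxcl13* (352.7), gp38+CD26- replicate 5 for *Cxcl16* (39.3) and cTEC replicate 5 for *Cxcl16* (76.7, the lowest of its group).

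At W4, gp38+CD26+ replicate 3 stood apart for *Cxcl13* (138.03 CPM) and *Cxcl14* (147.5), and replicate 1 for *Ccl7* (213.5). The gp38+CD26- replicate 4 did so for *Cxcl10* (27.2) and *Ccl2* (119.9). CD31+ replicate 2 was high for *Cxcl13* (3.71) and replicate 6 for *Cxcl10* (16.04). Ly51+gp38- replicate 5 was high for *Cxcl14* (6.29) and replicate 3 for *Ccl2* (81.6). In epithelium, cTEC replicate 4 was high for *Cxcl13* (52.1), cTEC replicate 5 for *Cxcl14* (2.61) and mTEClo replicate 5 for *Cxcl13* (71.1).

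The change from P0 to W4 differed over the 6 bulk populations for 7 members in the edgeR interaction test, with adjusted p of 1.02e-04 for *Ccl11*, 1.6e-04 for *Cxcl9*, 5.83e-04 for *Cxcl14*, 0.00131 for *Cxcl1*, 0.00177 for *Ccl7*, 0.0100 for *Cxcl13* and 0.0335 for *Ccl2*. Between gp38+CD26- and gp38+CD26+ it differed by 5.31 on the log2 scale for *Cxcl13* and by 2.77 for *Ccl7*. In the W4 gp38+CD26+ library left out for its depth, 5 reads of *Cxcl13* were found among 25702 in genes.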

How the results depend on the processing

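Among all values of the members under all alternatives, 6075 of 6782 kept their direction and side of the threshold or their level, 246 gained and 257 lost a call, 203 moved and 1 turned. The value that turned was *Cxcl13* in MedFb1a from E16.5 to P0, with 1.746 for all libraries, -0.49 without the second P0 library and up to 2.40 when another was left out. The calls from E16.5 to P0 numbered 75, 117 without the low-count filter, and 43 to 82 with a library left out. The calls from P0 to W4 numbered 102, and 91 to 111 with a library left out. Between genotypes there were 0 calls, 3 without the filter, 1 with DESeq2 and 0 to 2 with a library left out. The subtype of highest mean, taken for 10 members, ranked first in at least 5 of 8 libraries for 5 of them.

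The replicate numbers of the labels could not be shown to pair the single-cell libraries. With 2 libraries at an age, differently numbered ones have the same r with the opposite sign. In the age series such an r therefore cannot settle whether libraries are paired. Deviations of same-numbered libraries had an r of -0.129 between E16.5 and P0, -0.285 between P0 and W4 and -0.00843 between E16.5 and W4, and of 0.233, -0.0422 and -0.625 between genotypes. Between genotypes, differently numbered libraries ranged from -0.666 to 0.728. The highest were Tbx1+/-Crkl+/- replicate 2 with WT replicate 3 (0.728) and replicate 3 with WT replicate 1 (0.596), which a block by number does not follow. With the replicate block the calls were 91 from E16.5 to P0, 97 over 5 ages and 0 between genotypes, and from P0 to W4 they were slightly more than without it, 109 when the P0 numbers were crossed. The bulk library numbers run in steps of 12 over the populations of an age. Same-position libraries of different populations did not have every r over 0.1 in any of 15 population pairs at P0 and 28 at W4. Over each library and each other population, the best correlate had the same position in 53.3% at P0 and 39.8% at W4. With up to 6 libraries to draw from, this is more often than an even draw would give. The median r of library pairs with the same prefix was 0.0232 at the same position and -0.00247 at another at P0, and 0.0110 and 0.00162 at W4. This is a hint from the data, as the labels give the numbers without saying what a position stands for. The main fits took no account of position. With that position as a replicate block, added after the data were seen, 42 calls were made against the mean of the other 3 in place of 46, 5 between the gates in place of 4, 22 in the TEC contrasts in place of 21 and 8 in the interaction in place of 9. Calls were gained by *Cxcl13* between the gates at P0 (-5.65, adjusted p = 0.00214) and *Cxcl14* in mTEC against cTEC at P0 (4.21, 0.0317). Calls were lost by *Ccl2* in the interaction (adjusted p = 0.0955) and, against the mean of the other 3, by *Cxcl14* in gp38+CD26- (0.279) and Ly51+gp38- (0.0566) at P0 and by *Ccl2* in gp38+CD26- (0.0533) and gp38+CD26+ (0.0757) at W4. Without some single library, 20 calls from P0 to W4, 43 from E16.5 to P0 and 10 over 5 ages were lost. Levels under 3 UMIs per library could not be told from 0.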
